A study of Mus musculus with 2 samples.

Results

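The Krueppel-like factors described here are Klf2, Klf3, Klf4, Klf5, Klf6, Klf7, Klf9, Klf10, Klf13 and Klf15. They were taken by symbol from the deposited expression table, and all 10 were found among its 23084 gene symbols. The RNA came from fibroblasts of ICR mouse embryos (MEF), a primary culture that can carry other embryonic cell types along. Cells had been loaded with calcein, a fluorescent dye, together with cobalt chloride, which quenches the dye outside closed mitochondria. They were sorted into a bright pool, in which the mitochondrial permeability transition pore (mPTP) was taken to open little (low mPTP opening), and a dim pool, taken as high mPTP opening. Both pools carried the dye and the cobalt, the labels name no genotype, drug or embryo age, and no unsorted sample was analysed here. Each pool gave 1 library, with no replicate check of any difference, so the values compare 2 libraries and no p-value is given.

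Krueppel-like factors are transcription factors that bind CACCC boxes and GC-rich sites in promoters through zinc fingers at the carboxyl end. They share this DNA-binding part with the SP factors and differ in the rest of the protein, which recruits coactivators or corepressors. Several are transcribed soon after a stimulus such as serum, growth factors, fluid flow or steroid hormones. In fibroblasts and other mesenchymal cells the family is known for roles in growth arrest, wound responses and differentiation, and Klf4 is one of the factors that reprogram fibroblasts to pluripotency.

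The promoters of 3 members are shown because Klf9 and Klf2 were among the members furthest apart between the libraries and Klf3 lay closest. Each stretch is the 250 bases before the start of the gene in RefSeq on GRCm38.p6, the assembly of mm10, written 5′ to 3′ on the strand of the gene. Capitals mark the motifs CACCC and GGGCGG on either strand, which are core letters of sites that the family can bind.
Klf9, chr19:23140976-23141225, plus strand: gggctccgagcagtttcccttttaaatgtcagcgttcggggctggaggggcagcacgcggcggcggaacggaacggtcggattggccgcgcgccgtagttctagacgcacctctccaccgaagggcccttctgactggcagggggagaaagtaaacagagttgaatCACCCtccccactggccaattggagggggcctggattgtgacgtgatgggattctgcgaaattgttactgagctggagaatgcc
Klf2, chr8:72318812-72319061, plus strand: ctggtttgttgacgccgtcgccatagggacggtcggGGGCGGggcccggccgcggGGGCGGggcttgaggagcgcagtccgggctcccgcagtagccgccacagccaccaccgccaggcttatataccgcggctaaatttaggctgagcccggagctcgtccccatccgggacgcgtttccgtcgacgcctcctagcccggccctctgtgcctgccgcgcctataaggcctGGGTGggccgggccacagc
Klf3, chr5:64803271-64803520, plus strand: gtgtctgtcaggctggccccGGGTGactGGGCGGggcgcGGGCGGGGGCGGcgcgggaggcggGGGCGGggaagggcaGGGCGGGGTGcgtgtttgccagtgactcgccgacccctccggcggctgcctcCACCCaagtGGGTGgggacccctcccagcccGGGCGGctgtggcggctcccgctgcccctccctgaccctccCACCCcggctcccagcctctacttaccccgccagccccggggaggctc

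Promoter entries were found for 8 of the 10 members, namely Klf2, Klf3, Klf4, Klf6, Klf7, Klf9, Klf13 and Klf15. On either strand, 6 of these 8 held CACCC, against 52.0% of all 32851 promoter stretches of the same length, and 7 of 8 held GGGCGG, against 32.7%. Klf3 had 5 CACCC and 6 GGGCGG matches, and matches of these motifs may overlap. The Klf4 and Klf6 stretches held no CACCC, and the Klf9 stretch held no GGGCGG. The member stretches were rich in G and C, with a median of 71.4% against 52.4% over all promoters, and GC-rich motifs are met more often in such sequence. TGACG, the core of cyclic AMP response elements, stood in 5 of 8 member stretches and 17.8% of all. The full TGACGTCA, which contains TGACG, stood in 0 of 8 and 1.55%. CCAAT stood in 4 of 8, against 33.8%, and TATAAA in 0 of 8, against 12.4%. The CArG box of serum response factor stood in 0 of 8, against 1.47%, and the MEF2 motif in 1 of 8, against 2.92%. The MEF2 match lies in the Klf2 promoter, 118 to 109 bases before the start, and is in capitals here with its flanks.
Klf2 MEF2 motif: tataccgcggCTAAATTTAGgctgagcccg
These matches describe letters in a window and say nothing of whether a factor was bound.

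The pools were compared to see how transcript levels differ with mPTP opening. As deposited, all 10 members had a lower FPKM with high than with low mPTP opening, and the differences ran from small to moderate. Klf9 was 1.60-fold lower, Klf10 1.49-fold and Klf2 1.42-fold, while Klf3 was 1.08-fold lower. Of the 10 members, 9 reached a mean of 1 FPKM (reads or fragments per kilobase of gene, scaled to depth) and were measured by that filter, and Klf15 did not. A difference is log2(high FPKM + 1) minus log2(low FPKM + 1), which makes the differences of low genes look smaller than they are. Ratios and folds of single genes are of FPKM itself, while counts of genes past a fold size use the difference.

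The 9 measured members all had a difference below 0, as did 54.6% of all 11898 measured genes. Of the members with a mean of at least 5 FPKM, 7 of 7 were below 0, against 49.7% of genes at that level. The median difference of the 9 was -0.25, against -0.023 over all measured genes, and after both libraries were scaled to the same FPKM sum it was -0.16, against 0.093. On the log2(FPKM + 1) scale, 1 member was lower (Klf9) by at least 1.5-fold and 0 were higher, where 4.38% of all measured genes were lower and 1.54% higher. At 1.3-fold, 3 members were lower (Klf9, Klf10 and Klf2) and 0 higher, against 10.5% and 4.75% of all. No member was lower by 2-fold, a size that 0.958% of measured genes reached. Thus 1 of 9 measured members passed the 1.5-fold size and 3 of 9 the 1.3-fold size. What all 9 had in common as deposited was the direction. Scaling to the same FPKM sum adds 0.12 to every log2 ratio. Klf3 was then at 0.014 and the other 8 measured members stayed below 0, where 35.6% of all measured genes were below 0. By 1.5-fold 0 members were lower, against 7.29% of genes with a rescaled mean of at least 1 FPKM. That scaling also raises the FPKM values of both libraries before the 1 is added, so the differences of low genes are shrunk less.

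**Figure D1:**
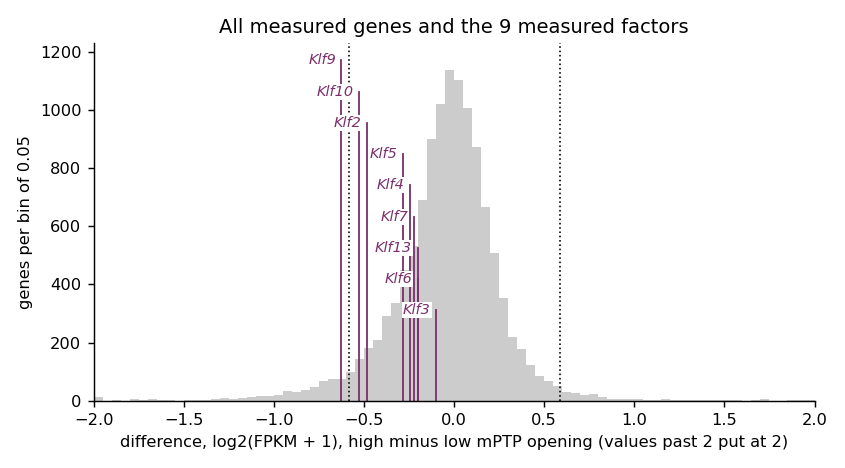
Histogram of the difference in log2(FPKM + 1), high minus low mPTP opening, over the 11898 measured genes, in bins of 0.05, with lines at the 9 measured Krueppel-like factors (line heights only separate the names) and dotted lines at 1.5-fold. All 9 lie left of 0, between -0.63 for Klf9 and -0.10 for Klf3, and of the 9 Klf9 alone lies past the dotted line.

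The smallest steps of the FPKM values gave denominators of 15060435 reads or fragments for the low and 16375735 for the high mPTP opening library. From these the reads behind each member were worked out, and ratios carry exact 95% Clopper-Pearson intervals. These cover counting error only, not the variation from culture to culture or sort to sort. The interval of the high to low ratio lay below 1 for 9 of 9 measured members, against 26.4% of measured genes, while 20.4% of measured genes had an interval above 1. In a check chosen after seeing the data, scaling by the median ratio or a trimmed mean left 8 of 9 below 1, without Klf3. Scaling to the same FPKM sum left 6 of 9, without Klf3, Klf7 and Klf13, where 15.4% of measured genes lay below 1 and 37.2% above.

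**Figure D2:**
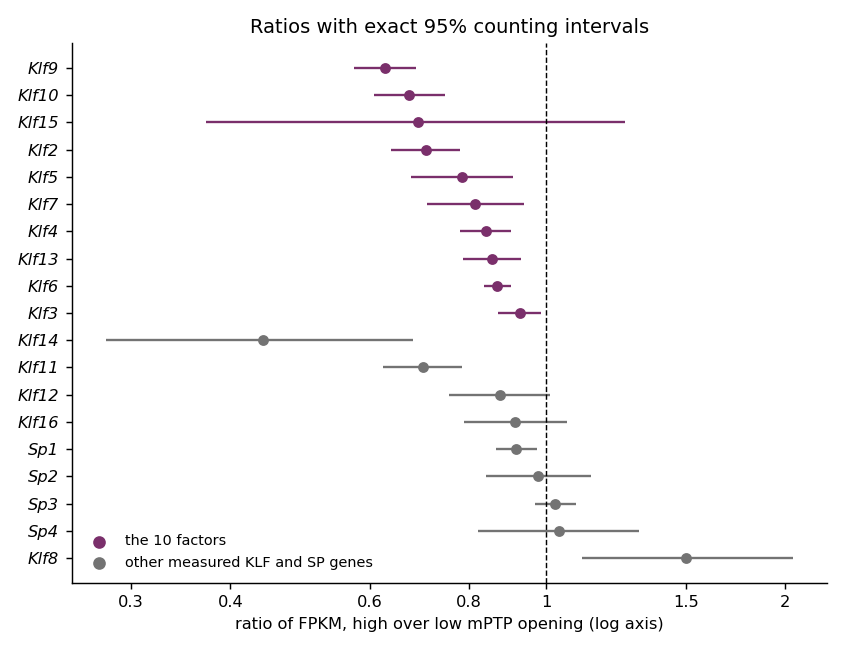
Ratio of FPKM, high over low mPTP opening, on a log axis for the 10 Krueppel-like factors and the 9 other measured KLF and SP genes; bars are exact 95% counting intervals. As deposited, the 9 measured members sit between 0.626 and 0.927 with bars below 1, the bar of Klf15 crosses 1, and among the 9 other genes Klf8 alone has a bar above 1.

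Klf6, Klf2, Klf4, Klf5 and Klf7 belong to the branch of the family that mostly activates transcription. Gene coordinates from here on are those listed in the deposited expression table, on mm10. Klf6, a factor induced early after tissue injury (chromosome 13, 5861489 to 5870393), had the highest level among the members. Its level was 78.1 FPKM with low and 67.7 FPKM with high mPTP opening, a ratio of 0.868 (0.834 to 0.902) from 5162 and 4870 reads. Among the 160 measured genes that the deposited table annotates with this zinc finger type by Pfam name, Klf6 ranked 2 by FPKM in both libraries. Klf6 was thus abundant in both pools, and 8 of the 9 other members had a lower ratio.

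Klf2, which holds endothelial cells and T cells in a quiet state (chromosome 8, 72319033 to 72321656), was at 32.4 FPKM with low and 22.8 FPKM with high mPTP opening. The ratio was 0.705 (0.638 to 0.780) from 901 and 691 reads, and 6.60% of measured genes had a more negative difference. Klf4, an epithelial barrier and reprogramming factor (chromosome 4, 55527143 to 55532466), was at 32.0 FPKM with low and 26.8 FPKM with high mPTP opening. Its ratio was 0.839 (0.778 to 0.904) from 1469 and 1340 reads. Klf2 and Klf4 are often described together as genes downstream of the ERK5 kinase, and here Klf2 was further apart between the libraries. The ratio of Klf2 divided by that of Klf4 was 0.841 (0.741 to 0.953).

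Klf5, a factor of proliferating epithelial and smooth muscle cells (chromosome 14, 99298691 to 99313405), was at 5.02 FPKM with low and 3.94 FPKM with high mPTP opening. Its ratio was 0.784 (0.676 to 0.909) from 393 and 335 reads. Klf7, known from the growth of neurons (chromosome 1, 64029447 to 64122282), was at 3.50 FPKM with low and 2.85 FPKM with high mPTP opening, with a ratio of 0.814 (0.707 to 0.937) from 428 and 379 reads. In GENCODE M21, 39.4% of Klf7 exon sequence overlaps genes on the opposite strand, Gm26649 and Gm13748. Whether counting used strand is not given in the sources used here, and reads of Klf7 and of these genes may not be told apart. Neither Gm26649 nor Gm13748 was among the listed symbols, so no level of either can be given.

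Klf3 stands for the branch that represses through the corepressor CtBP (chromosome 5, 64803388 to 64832901). It was at 11.8 FPKM with low and 10.9 FPKM with high mPTP opening, with a ratio of 0.927 (0.871 to 0.987) from 1996 and 2012 reads. This was the ratio nearest to 1 among the members. Of its exon sequence 3.59% overlaps Gm20033 on the opposite strand, which was at 0.0638 and 0.0977 FPKM, low before high, from 3 and 5 reads.

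Klf9, Klf10 and Klf13 belong to the branch that binds the corepressor Sin3. Klf9, a factor induced by glucocorticoids and thyroid hormone (chromosome 19, 23141226 to 23166911), was at 16.6 FPKM with low and 10.4 FPKM with high mPTP opening. Its ratio was 0.626 (0.572 to 0.685) from 1204 and 820 reads, the lowest among the members, and 3.79% of measured genes had a more negative difference. Klf10, an early gene of transforming growth factor beta (TGF-beta) signalling (chromosome 15, 38294413 to 38300707), was at 14.0 FPKM with low and 9.41 FPKM with high mPTP opening. Its ratio was 0.672 (0.606 to 0.745) from 881 and 644 reads, and its difference of -0.53 lay just short of the 1.5-fold rule that Klf9 passed with -0.63. Klf13, which drives the chemokine gene Ccl5 in T cells (chromosome 7, 63886351 to 63938915), was at 10.2 FPKM with low and 8.77 FPKM with high mPTP opening. The Klf13 ratio was 0.856 (0.787 to 0.930) from 1162 and 1081 reads, so within this branch Klf13 lay closer between the libraries than Klf9 and Klf10.

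Klf15, a regulator of amino acid and glucose metabolism in liver and muscle (chromosome 6, 90462576 to 90475238), had the lowest level. It was at 0.666 FPKM with low and 0.459 FPKM with high mPTP opening, from 28 and 21 reads. The ratio of 0.690 (0.372 to 1.26) has an interval on both sides of 1, and the depth could not show a difference.

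**Figure D3:**
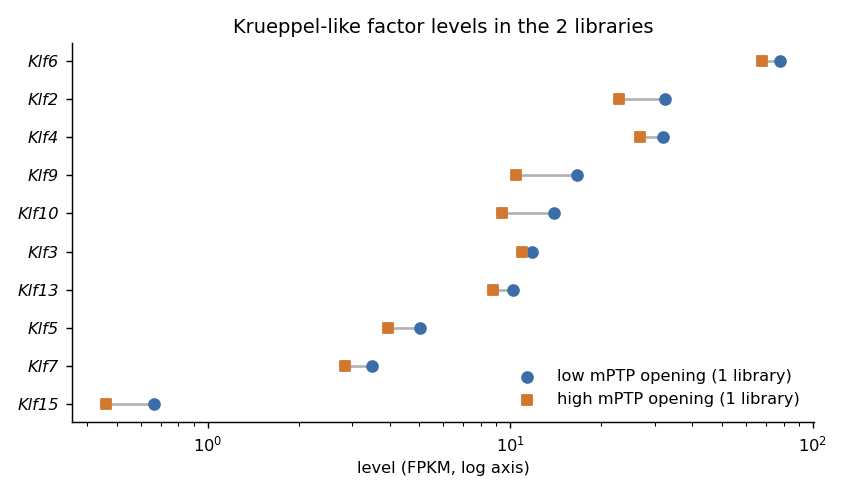
Level in FPKM on a log axis of each Krueppel-like factor in the low (circles) and high (squares) mPTP opening library, 1 library each, ordered by the low library. Every square lies left of its circle, levels span from 0.459 FPKM for Klf15 to 78.1 FPKM for Klf6, and the line between the libraries is longer for Klf9, Klf10 and Klf2 than for Klf3.

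Levels in FPKM, which are per length, were ordered in much the same way in both libraries. In the low mPTP opening library the order was Klf6, Klf2, Klf4, Klf9, Klf10, Klf3, Klf13, Klf5, Klf7 and Klf15. Only Klf2 and Klf4 were neighbours whose levels did not differ beyond counting error, with a level ratio of 1.01 (0.931 to 1.10). In the high mPTP opening library the order was Klf6, Klf4, Klf2, Klf3, Klf9, Klf10, Klf13, Klf5, Klf7 and Klf15. There Klf4 exceeded Klf2 by a level ratio of 1.17 (1.07 to 1.29). The level ratios of Klf3 to Klf9, 1.05 (0.968 to 1.14), of Klf9 to Klf10, 1.11 (0.996 to 1.23), and of Klf10 to Klf13, 1.07 (0.972 to 1.18), did not differ from 1 beyond counting error.

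The summed level of the 10 members was 204 FPKM with low and 164 FPKM with high mPTP opening, a ratio of 0.804. Klf6 made up 38.2% of that sum with low and 41.3% with high mPTP opening, and Klf9 8.13% and 6.34%. Of the difference in the summed level, 25.8% was Klf6, 23.8% Klf2, 15.5% Klf9, 12.9% Klf4 and 11.5% Klf10. The members with the highest levels therefore carried much of the summed difference also where, as for Klf6, their ratio was nearer to 1.

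The members did not all differ by the same ratio. Of the 45 pairs of members, 17 had high to low ratios whose quotient had a counting interval to one side of 1, without adjustment for the number of pairs. Klf9 stood apart in 6 of its 9 pairs, with Klf3, Klf4, Klf5, Klf6, Klf7 and Klf13, and the Klf9 ratio divided by the Klf13 ratio was 0.732 (0.647 to 0.828). Klf3 and Klf10 each stood apart in 5 of their 9 pairs, Klf2 and Klf4 in 4, Klf6 and Klf13 in 3, and Klf5 and Klf7 in 2. Klf2, Klf9 and Klf10 were not distinguished from each other, with quotients of 1.13 (0.984 to 1.29) for Klf2 over Klf9, 1.05 (0.908 to 1.21) for Klf2 over Klf10 and 0.932 (0.812 to 1.07) for Klf9 over Klf10. Klf15 stood apart in 0 pairs.

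The 17 other genes of the KLF and SP family were set beside the members. Of these 14 were listed and 9 measured, of which 6 had a difference below 0 and 3 above, with a median of -0.12 that was -2.2e-05 after scaling to the same FPKM sum. As deposited, 0 were lower or higher by 1.5-fold on the log2(FPKM + 1) scale. After that scaling, where the added 1 weighs less on low genes, 1 was lower (Klf14). Klf11, like Klf10 a gene induced by TGF-beta, was at 10.8 FPKM with low and 7.51 FPKM with high mPTP opening, a ratio of 0.699 (0.623 to 0.783). Klf14, an imprinted gene, was at 1.46 FPKM with low and 0.639 FPKM with high mPTP opening, with a ratio of 0.439 (0.279 to 0.679) from 67 and 32 reads and a difference of -0.58. Klf8, which like Klf3 binds CtBP, went the other way, at 0.906 FPKM with low and 1.36 FPKM with high mPTP opening, a ratio of 1.5 (1.11 to 2.05) from 71 and 116 reads. Klf12, also a CtBP-binding repressor, had a ratio of 0.874 (0.754 to 1.01), and Klf16, a Sin3-binding relative of Klf13, had a ratio of 0.915 (0.788 to 1.06).

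The SP factors lay close together in the libraries. Sp1, a widely used GC box factor, was at 17.2 FPKM with low and 15.8 FPKM with high mPTP opening, a ratio of 0.918 (0.864 to 0.975). Sp3, which competes with Sp1 for sites, had a ratio of 1.03 (0.967 to 1.09), Sp2 a ratio of 0.978 (0.839 to 1.14) and Sp4 a ratio of 1.04 (0.821 to 1.31). The osteoblast factor Sp7 was at 0.777 and 0.778 FPKM, low before high. Klf1, Klf17, Sp5 and Sp9 had at most 4 reads in either library, and Klf18, Sp6 and Sp8 were not among the listed symbols.

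Outside the family, 142 measured genes carried the same zinc finger annotation in the deposited table. Of those 68.3% had a difference below 0, with a median of -0.046, and 0.704% were lower by 1.5-fold. Of 461 measured genes outside the family annotated as transcription factors by gene ontology, 61.8% were below 0, with a median of -0.053, and 2.17% were lower by 1.5-fold. The median of the measured Krueppel-like factors lay further below 0 than either.

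Immediate early genes, with which several members are transcribed, were below 0 in 18 of 18 measured genes outside the family, against 54.6% of all measured genes. Of these 5 (Btg2, Atf3, Nr4a1, Dusp1 and Zfp36) were at least 1.5-fold lower, against 4.38% of all, and the median was -0.41. After scaling to the same FPKM sum 3 genes were at least 1.5-fold lower, against 7.29% of genes with a rescaled mean of at least 1 FPKM. Btg2, an antiproliferative gene, was at 52.4 FPKM with low and 26.3 FPKM with high mPTP opening. Atf3, a stress-induced factor, had a ratio of 0.568 (0.510 to 0.633), the nuclear receptor gene Nr4a1 a ratio of 0.590 (0.562 to 0.618) and the phosphatase gene Dusp1 a ratio of 0.622 (0.583 to 0.663). The differences of Klf9 (-0.63), Klf10 (-0.53) and Klf2 (-0.49) lay beyond the median of this list, and those of Klf4 (-0.25) and Klf6 (-0.20) between the median and 0.

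On the ERK5 and MEF2 route, which switches on Klf2 and Klf4, 7 of 8 genes were measured, 6 below 0 and 1 above, with 0 past 1.5-fold and a median of -0.16. After scaling to the same FPKM sum, 5 were below 0 and 2 above, with a median of -0.049. The transcription factor Mef2c was at 3.95 FPKM with low and 2.86 FPKM with high mPTP opening, a ratio of 0.724 (0.656 to 0.798). Mef2a had a ratio of 0.757 (0.709 to 0.809), the kinase Map2k5 a ratio of 0.865 (0.758 to 0.987) and Mef2d a ratio of 0.886 (0.821 to 0.956). The ERK5 gene itself, Mapk7, was at 11.0 and 11.9 FPKM, low before high. Mef2a, Mef2c, Mef2d and Klf2, whose promoter holds the MEF2 motif printed above, were each lower as deposited in the same library, and a link between these values was not tested.

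Serum response factor and its partners had 2 of 6 measured genes below 0, with 0 past 1.5-fold and a median of 0.0090, which was 0.13 after scaling to the same FPKM sum. Elk4, an ETS partner, was at 6.86 FPKM with low and 5.04 FPKM with high mPTP opening. Elk3 had a ratio of 1.06 (0.978 to 1.14), Mkl2 a ratio of 0.891 (0.7997 to 0.993) and Mkl1 a ratio of 1.01 (0.931 to 1.10). Srf itself was at 15.3 and 15.5 FPKM, low before high, and so lay close together while the immediate early genes did not.

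Of TGF-beta signalling, which induces Klf10, 10 of 10 genes were measured, 7 below 0 and 3 above, with a median of -0.14. On the log2(FPKM + 1) scale 0 were past 1.5-fold. After scaling to the same FPKM sum, 5 of 10 were below 0, with a median of -0.024. The ligand Tgfb2 was at 27.0 FPKM with low and 17.8 FPKM with high mPTP opening, a ratio of 0.658 (0.618 to 0.701). That is 1.52-fold lower in FPKM itself, while its difference of -0.577 lay just short of the 1.5-fold rule. The ligand Tgfb1 had a ratio of 0.736 (0.678 to 0.799), the receptor Tgfbr2 a ratio of 0.765 (0.739 to 0.791) and the signal transducer Smad3 a ratio of 0.838 (0.782 to 0.899). Smad2 and Smad4, which act beside Smad3, had ratios of 1.09 (1.03 to 1.15) and 1.09 (1.02 to 1.16).

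The glucocorticoid receptor and its targets, listed because Klf9 and Klf15 respond to glucocorticoids, had 3 of 6 measured genes below 0 and 3 above. Their median was -0.016, which turned to 0.11 after scaling to the same FPKM sum. Per1, a clock gene, was at 13.8 FPKM with low and 9.10 FPKM with high mPTP opening, and Errfi1 had a ratio of 0.716 (0.673 to 0.761). Fkbp5, a standard glucocorticoid target, lay the other way, at 4.85 FPKM with low and 7.11 FPKM with high mPTP opening, with a ratio of 1.47 (1.33 to 1.61), and Tsc22d3 had a ratio of 1.13 (0.997 to 1.29). The receptor gene Nr3c1 was at 13.5 and 13.9 FPKM, low before high. Klf9 thus differed in the same direction as Per1 and in the opposite direction to Fkbp5.

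**Figure D4:**
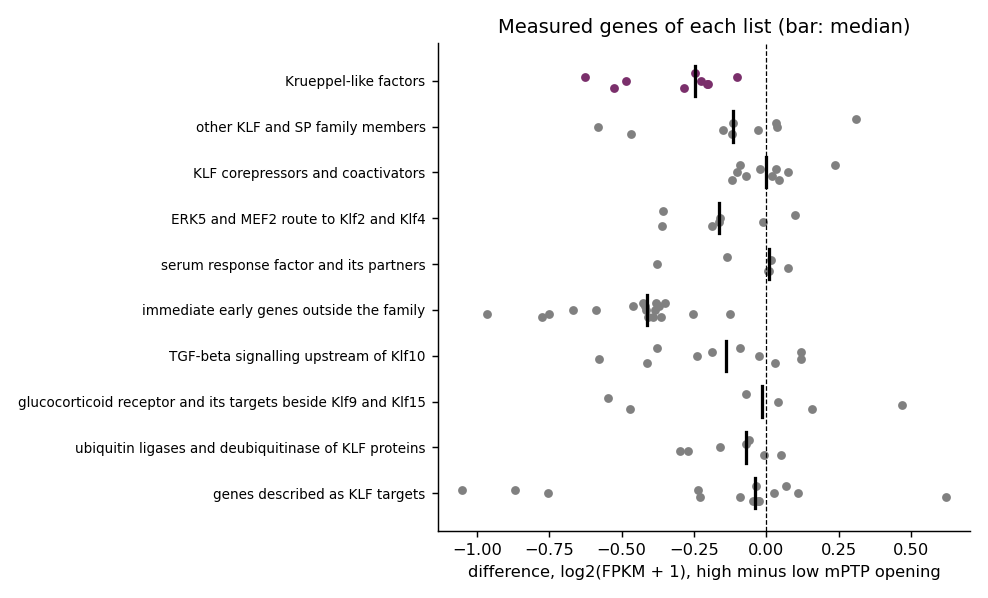
Difference in log2(FPKM + 1), high minus low mPTP opening, of each measured gene in the Krueppel-like factor list and in 9 lists of family, partner, upstream and target genes; points are spread vertically for sight and bars are medians. The Krueppel-like factors all lie below 0 with a median of -0.25, between the median of the immediate early genes (-0.41) and that of the other KLF and SP genes (-0.12). The medians of the ERK5 and MEF2 list (-0.16) and the TGF-beta list (-0.14) lie there as well.

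Partner proteins of the factors lay on both sides of 0. Of 10 measured corepressors and coactivators 5 were below 0 and 5 above, with 0 past 1.5-fold and a median of -0.0020, which turned to 0.12 after scaling to the same FPKM sum. Ctbp1, the partner of Klf3, was at 44.9 FPKM with low and 45.5 FPKM with high mPTP opening, and Sin3a, the partner of Klf9, Klf10 and Klf13, was at 11.5 and 11.8 FPKM. Hdac1, a deacetylase found with both, had a ratio of 1.18 (1.11 to 1.26), and Sin3b had a ratio of 0.933 (0.859 to 1.01). The acetyltransferase genes Crebbp and Kat2b had ratios of 0.906 (0.835 to 0.984) and 0.923 (0.817 to 1.04).

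Ubiquitin ligases and a deubiquitinase of these proteins had 6 of 7 measured genes below 0, with 0 past 1.5-fold and a median of -0.070 that turned to 0.048 after scaling to the same FPKM sum. Wwp1, a ligase of Klf2 and Klf5, had a ratio of 0.799 (0.739 to 0.865), and Fbxo32 was at 1.61 and 1.16 FPKM, low before high. Fbxw7 had a ratio of 0.866 (0.747 to 1.00) and Siah1a a ratio of 0.949 (0.830 to 1.09).

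Of 18 genes described as targets of these factors in other cells, 14 were measured, 10 below 0 and 4 above, with a median of -0.040 that turned to 0.075 after scaling to the same FPKM sum. By 1.5-fold 3 were lower (Cdkn1a, Lgals3 and Krt19) and 1 was higher (Ccnb1). Among all measured genes 54.6% were below 0, 4.38% were lower by 1.5-fold and 1.54% higher. Cdkn1a, the cell cycle inhibitor gene that Klf4 and Klf6 can activate, was at 106 FPKM with low and 50.4 FPKM with high mPTP opening. Lgals3, a gene that Klf3 represses in mice, was at 47.0 FPKM with low and 25.3 FPKM with high mPTP opening, a ratio of 0.537 (0.491 to 0.588), and Krt19 was at 4.30 and 2.14 FPKM. Ccnb1, the mitotic cyclin gene that Klf4 can repress, was at 13.3 FPKM with low and 20.95 FPKM with high mPTP opening, a ratio of 1.58 (1.45 to 1.72). Thbd and S1pr1, which Klf2 activates in endothelium or T cells, had ratios of 0.845 (0.792 to 0.902) and 0.981 (0.871 to 1.11). Targets lay on both sides of 0, and no single direction described the list.

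Markers of other cell types differed between the libraries beside the members. For the counts that follow, 54.6% of all measured genes were below 0, 4.38% were lower by 1.5-fold and 1.54% higher. Fibroblast markers were high in both, with a summed level of 6929.9 FPKM with low and 6868 FPKM with high mPTP opening and Col1a1 at 3059 and 3204 FPKM, although S100a4 was listed at 0 and 0.105 FPKM. Single fibroblast markers lay on both sides: 2 of 9 were lower by 1.5-fold, Dcn with a ratio of 0.566 (0.552 to 0.581) and Lum with 0.625 (0.599 to 0.652), Col3a1 had a ratio of 0.758 (0.752 to 0.764), and Thy1 lay the other way with 1.44 (1.37 to 1.52). Macrophage markers, of a cell type that also expresses Klf2, Klf4 and Klf6, were below 0 in 12 of 12 measured genes, 9 of them by 1.5-fold, with summed levels of 960.0 and 473 FPKM. Mesothelial markers were lower by 1.5-fold in 5 of 6 measured genes (39.0 and 17.5 FPKM summed), and Schwann and glia markers in 4 of 4 (13.8 and 1.74 FPKM). Of the epithelial list, the measured Krt8 and Krt18 were both lower by 1.5-fold (8.86 and 3.66 FPKM for the list), with Krt5 listed at 0 with low and Ocln at 0 with high mPTP opening. Adipocyte markers were below 0 in 3 of 3 measured genes, 2 of them by 1.5-fold (15.2 and 8.43 FPKM), with Adipoq listed at 0 in the high mPTP opening library. Endothelial markers, of a cell type known for Klf2 and Klf4, summed to 6.40 and 6.40 FPKM, with the defining genes Pecam1 at 0.0960 and 0.0196 FPKM and Cdh5 at 0.174 and 0.0726 FPKM. The Cdh5 ratio of 0.418 (0.114 to 1.31) includes 1, and Pecam1 had a ratio of 0.204 (0.0215 to 0.987) from 9 and 2 reads. Tek was lower with high mPTP opening, with a ratio of 0.340 (0.203 to 0.550) from 65 and 24 reads. Erg, which made up 3.95 and 4.40 FPKM of the summed levels, had a ratio of 1.12 (0.924 to 1.35). Emcn lay the other way from Tek, at 0.110 and 0.542 FPKM, from 9 and 48 reads. Smooth muscle and pericyte markers had 5 of 9 measured genes above 0, 4 of them by 1.5-fold (Acta2, Actg2, Cnn1 and Myh11), and 4 below 0. The list summed to 1258 and 2119 FPKM, of which Acta2 was 1166 and 1953 FPKM. Pericyte genes of the list lay the other way, with ratios of 0.513 (0.414 to 0.634) for Abcc9, 0.652 (0.496 to 0.854) for Kcnj8 and 0.659 (0.607 to 0.715) for Notch3, while Rgs5 had 0.920 (0.728 to 1.16). The part of these cell types in the levels of the Krueppel-like factors was not tested, and in sorted bulk RNA fewer cells of a type and less RNA per cell cannot be told apart.

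Transcripts of immediate early type often carry AU-rich elements, which mark short-lived mRNAs. In the 3′ untranslated region of 1 coding transcript per gene in GENCODE M21, 10 of 10 members held the pentamer ATTTA, against 70.6% of 10572 measured genes. The members had longer untranslated regions, with a median of 2409 against 1072 bases, and a median of 2.18 pentamers per kilobase against 1.39. The density ran from 0.582 in Klf13 to 2.87 in Klf7. The longer TTATTTATT stood in 1 of 10 members, Klf5, and in 7.69% of measured genes. It is printed in capitals with its flanks as the one such match among the members.
Klf5 AU-rich element: ttttatcaTTATTTATTttgtggta
Klf9 and Klf10, with the lowest ratios among measured members, had densities of 2.48 and 2.68, while Klf2 had 1.36. A link between density and ratio was not tested.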

How the data were processed

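Total RNA from both sorted pools was extracted with TRIzol and made into TruSeq libraries, per the labels' protocols. The authors deposited FPKM per gene, 1 column per library. The submitters' processing notes name TopHat2 2.0.12, Bowtie2 2.2.3 and the mm10 build. How reads were counted, on which annotation and with what strand setting is not given in the sources used here. FPKM times the exon length in GENCODE M21 moved in whole steps, which gave each library's denominator. Within 0.05 reads, 93.2% (low) and 93.5% (high) of values up to 20 reads, the range that set the denominators, came out whole. Over all nonzero values 85.7% came out whole in each library. Other reads were rounded, Klf5, Klf6, Klf9 and Klf10 among them. Rounded reads may be off where the length used in counting differs from that in GENCODE M21. With 1 library per group no test was run: differences are log2 of FPKM with a pseudocount of 1, for genes whose mean over both libraries was 1 FPKM or more, and ratios carry exact 95% Clopper-Pearson intervals, checked on simulated data. A count of 0 allows up to 3 reads, or 0.199 (low) and 0.183 (high) FPKM for a gene of 1 kilobase. All members, the other family genes and up to 4 genes with the largest absolute differences per list were named, with others added after their values were seen. The members and lists were chosen with earlier results of these data known. Alternatives changed the pseudocount, filter, scaling and size rule. Calculations ran in Python 3.11.15 with SciPy 1.17.1, pandas 2.3.3 and NumPy 2.4.6, and figures in matplotlib 3.10.9.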

Additional observations from a re-analysis of the deposited data

How the results depend on the processing

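The count of Krueppel-like factors lower by 1.5-fold or more was 1 as deposited, against 4.38% of all measured genes. It was 0 with a pseudocount of 5 FPKM, against 1.19%. After scaling to a sum of 1000000 it was 0, against 7.29%, with Klf15 also past the filter of 1 FPKM. At 2-fold it was 0, against 0.958%, and at 1.3-fold 3, against 10.5%. The Klf3 difference turned to 0.014 after scaling to a sum of 1000000, where Klf4 was at -0.13 and Klf6 at -0.080; Klf9 was at -0.49 with a pseudocount of 5 FPKM. Scaling by the median ratio or a trimmed mean added 0.027 and 0.030 to every log2 ratio, and scaling to the sum added 0.12. Scaling to the sum also raised the FPKM values of both libraries before the pseudocount was added, so the differences of low genes were shrunk less. The count of measured factors with a counting interval below 1, 9 as deposited, was 8 under the first 2 scalings and 6 under the last. No paired analysis was possible because each group has 1 library and the labels give no replicate numbers. With 1 library per group, differences between cultures or sorts cannot be told apart from the difference between pools.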
